A study of Drosophila melanogaster with 24 samples.

Results

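The prolyl 4-hydroxylase alpha genes are 8 protein-coding genes of Drosophila melanogaster that carry the symbol PH4alpha: PH4alphaPV, PH4alphaSG1, PH4alphaSG2, PH4alphaMP, PH4alphaNE1, PH4alphaNE2, PH4alphaNE3, and PH4alphaEFB. They were found by matching these symbols to FlyBase identifiers, and all 8 were among the 17611 genes of the count table. The family was chosen by the counts of PH4alphaPV (FBgn0051015), which was much lower in PD flies than in CTRL flies, so the PD and CTRL values of the genes are given as a description with no test. The other 7 genes were taken in with it as its named relatives.

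Poly(A) RNA of whole adult w1118 flies was sequenced in 6 groups with 3 libraries each. All flies were kept on yeast-glucose medium and entered the experiment as adults 7 days after eclosion. PD flies received rotenone, an inhibitor of mitochondrial complex I, for 7 days and were taken on day 7, whereas CTRL flies received DMSO and were taken on the same day. PWFC flies received rotenone for 7 days and then fecal microbiota transplantation (FMT) from control flies for 7 days, while PWOFC flies received rotenone and then no FMT. CWFP flies received DMSO and then FMT from PD flies for 7 days, and CWOFP flies received DMSO and then no FMT. These 4 groups were taken on day 14. FMT was given through medium that held what the methods call gut content, obtained by grinding surface-disinfected donor flies in PBS. The labels write the 250 µM rotenone protocol for every sample, the DMSO-fed flies included. The methods call the replicates of the expression data biological, but neither they nor the labels say whether these came from separate cultures, so p-values measure the spread between these libraries. The rotenone-fed flies are a model made by a toxin in the food, with no transgene.

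Collagen prolyl 4-hydroxylases are enzymes of the endoplasmic reticulum that hydroxylate prolines in newly made collagen chains, which lets the collagen triple helix hold together. Each enzyme is built from alpha subunits, which carry the catalytic site, and from protein disulfide isomerase as the beta subunit. In Drosophila many alpha subunit genes lie side by side near the tip of the right arm of the third chromosome, and most of the PH4alpha names come from where the genes are transcribed in the embryo: epidermis and fat body (EFB), mouthparts (MP), proventriculus (PV), salivary gland (SG), and no expression seen (NE). An embryonic name does not say where a gene is used in the adult fly.

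All 8 genes lie on chromosome 3R of the dm6 build. PH4alphaEFB stands first at 3R:30466050-30485799 on the plus strand, and PH4alphaPV stands 180.1 kb further on at 3R:30646106-30648551 on the minus strand. Between them lie PH4alphaSG2 (30490074 to 30491987, plus strand), PH4alphaMP (30491813 to 30496153, minus strand), PH4alphaNE1 (30496751 to 30500326, minus strand), PH4alphaSG1 (30503665 to 30505661, minus strand), PH4alphaNE2 (30510083 to 30512214, minus strand), and PH4alphaNE3 (30604181 to 30606144, plus strand). PH4alphaSG2 and PH4alphaMP share 128 exonic bases on opposite strands, and PH4alphaNE2 shares 64 exonic bases with CG34041. The use of strand in counting is not given in the sources used here, so reads of these overlaps are uncertain.

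Libraries held 17920498 to 29165130 counts on genes. Levels are given as CPM, counts scaled to the total of each library. Whole flies of both sexes were used, so the libraries also carry the transcripts of gonads, and in such bulk samples fewer cells of a type and less RNA per cell cannot be told apart. Some libraries stood apart by such transcripts. The 11 testis genes summed to 33.8 CPM in replicate 1 of CWFP, against 84.9 to 1304 CPM in the other 17 libraries. The 14 accessory gland genes summed to 40.2 CPM in that library, against 290 to 1804 CPM in the others. The 20 eggshell genes, which encode vitelline membrane and chorion proteins, summed to 2048 to 2482 CPM in the 3 PD libraries and to 1902 CPM in replicate 3 of CWFP, against 4166 to 20924 CPM in the other 14 libraries.

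The 8 genes differed widely in level. Scaled by exon length, PH4alphaEFB was the highest, with a median of 31.6 RPKM over the 18 libraries. PH4alphaPV (9.07 RPKM), PH4alphaNE3 (6.28 RPKM), and PH4alphaNE2 (4.22 RPKM) followed. PH4alphaMP (0.982 RPKM) and PH4alphaSG1 (0.733 RPKM) were lower by this median. PH4alphaNE1 (0.130 RPKM) and PH4alphaSG2 (0.109 RPKM) were close to the limit of detection, with 1 to 8 counts and 1 to 26 counts per library. The RPKM values of neighbors in this order overlapped across the libraries, apart from PH4alphaEFB and PH4alphaPV and from PH4alphaSG1 and PH4alphaNE1.

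**Figure D1:**
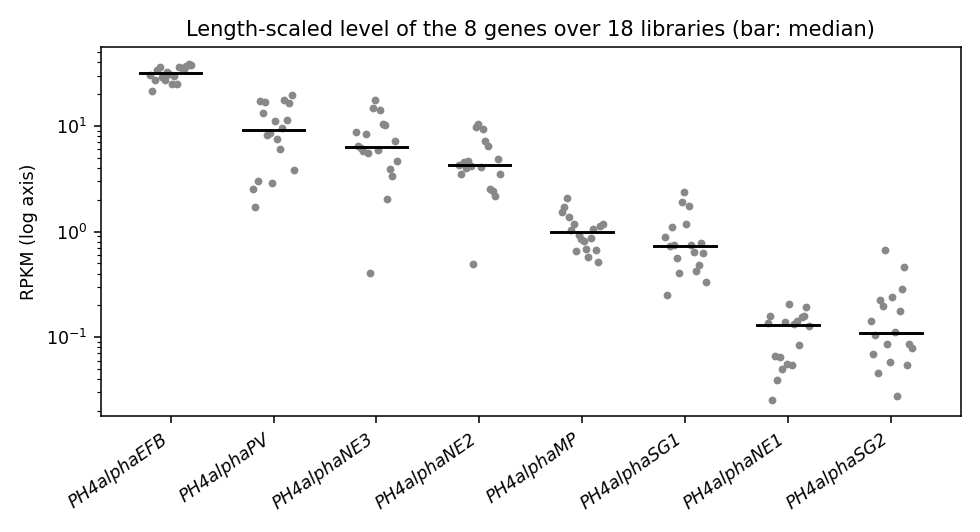
RPKM (log axis) of each prolyl 4-hydroxylase alpha gene, with 1 point for each of 18 libraries and a bar at the median. PH4alphaEFB lies above all the other genes with a median of 31.6 RPKM, and PH4alphaSG2 and PH4alphaNE1 lie at the bottom with medians of 0.109 and 0.130 RPKM.

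PH4alphaPV was the gene of the family with the widest gap between PD and CTRL flies. It had 4.90, 3.31, and 5.91 CPM in the 3 PD libraries, against 33.6, 25.6, and 32.7 CPM in the 3 CTRL libraries. The highest PD library was below the lowest CTRL library, as for 14.3% of all genes tested, and the ratio of the group means was 0.154. The fitted log2 fold change was -2.74 (SE 0.22). As this difference chose the gene, it carries no test.

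Transcripts of the ovary and of the yolk proteins differed between the same libraries. All 20 eggshell genes had fitted values below 0 in PD against CTRL, and the median was -2.65 on the log2 scale, against 0.046 over all 12643 genes tested. Differentially expressed transcripts (DETs) needed an adjusted p under 0.05 and a log2 fold change beyond 1 in either direction, and 9 of the 20 genes met this, all of them lower in PD. Of all genes tested, 1.16% were DETs lower in PD and 2.25% were DETs in either direction. The 3 yolk protein genes Yp1, Yp2, and Yp3 summed to 6701 to 7131 CPM in PD libraries and to 14589 to 25001 CPM in CTRL libraries. All 6 ovary germline genes had fitted values below 0, with a median of -1.27, and 2 of them were DETs. The part of the ovary and yolk transcripts in the level of PH4alphaPV was not tested.

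**Figure D2:**
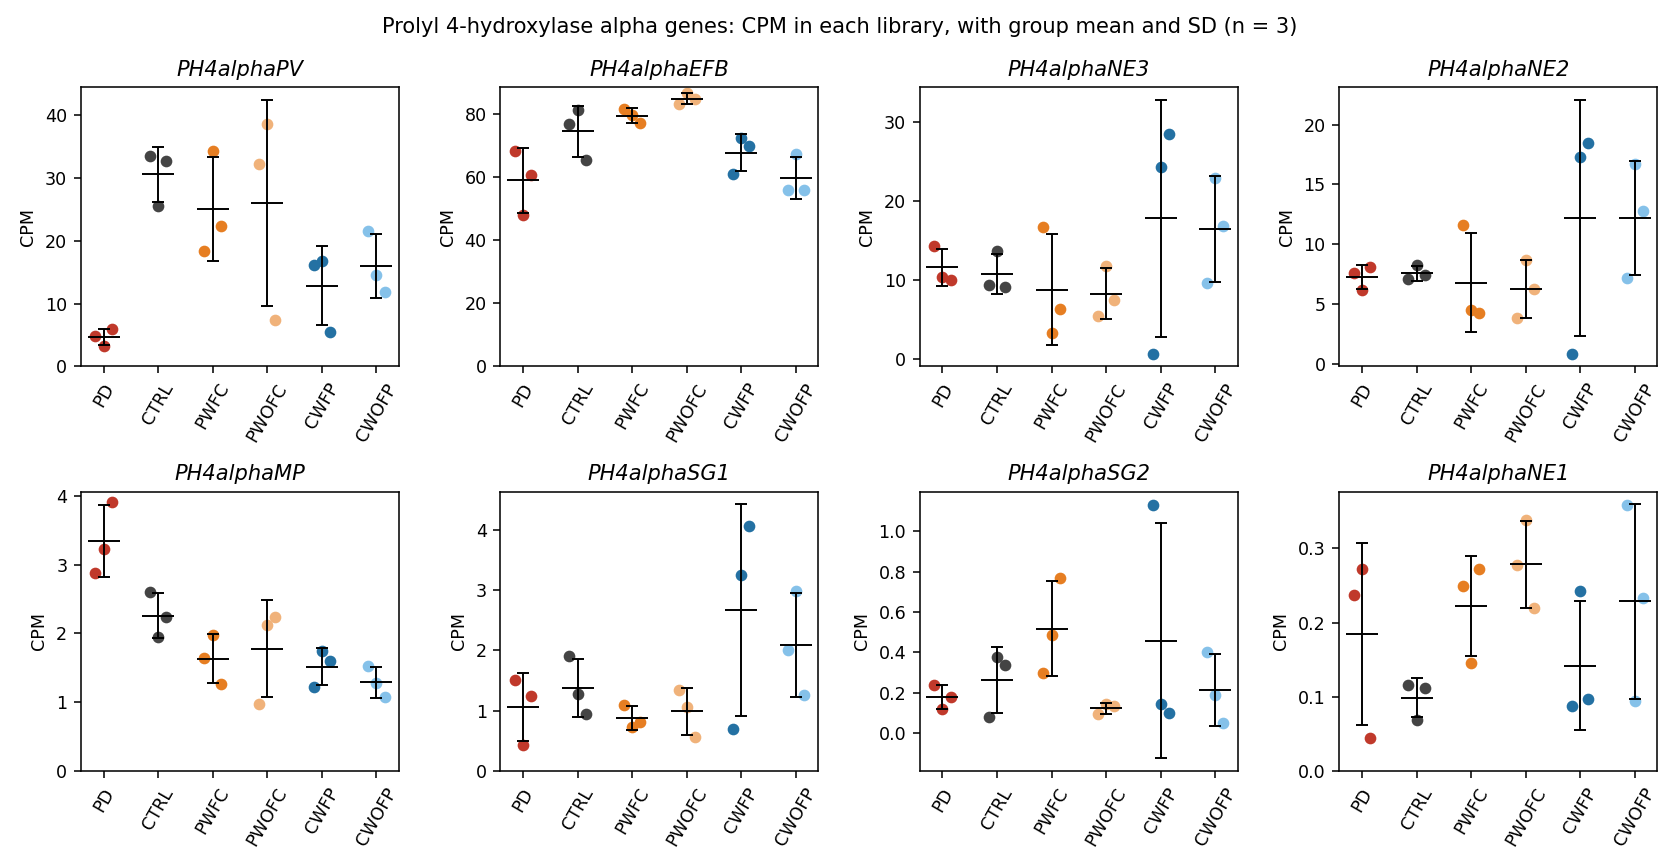
CPM of the 8 prolyl 4-hydroxylase alpha genes in each library (points) by group, with the mean and SD of 3 libraries (black bars). The PD libraries of PH4alphaPV sit between 3.31 and 5.91 CPM, all below the CTRL libraries, while replicate 1 of CWFP is at 0.653 CPM for PH4alphaNE3 and 0.871 CPM for PH4alphaNE2.

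On day 14 PH4alphaPV varied between the libraries of single groups. It had 18.5, 34.3, and 22.4 CPM in PWFC libraries, against 32.2, 38.6, and 7.38 CPM in PWOFC libraries. In flies without rotenone it had 16.1, 16.9, and 5.57 CPM in CWFP libraries, against 21.6, 14.6, and 11.8 CPM in CWOFP libraries. The groups of both pairs overlapped, and replicate 3 of PWOFC and replicate 3 of CWFP were the lowest of the 12 libraries of day 14. From low to high the means ran in the order PD, CWFP, CWOFP, PWFC, PWOFC, and CTRL, with overlapping ranges between all neighbors in this order. PWOFC averaged 5.53 times the level of PD, and CWOFP averaged 0.522 times the level of CTRL. These pairs differ in age as well as in the end of the feeding, which cannot be told apart.

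FMT gave no detectable difference in PH4alphaPV by edgeR's quasi-likelihood test. The log2 fold change was -0.022 (SE 0.59, adjusted p = 1.00) in PWFC against PWOFC, with a 95% interval of -1.43 to 1.38. It was -0.33 (SE 0.52, adjusted p = 1.00) in CWFP against CWOFP, with a 95% interval of -1.58 to 0.92. Without replicate 3 of CWFP the second value was 0.037. These intervals include changes of more than 1 in both directions. Between the groups without FMT, PH4alphaPV had a log2 fold change of 0.72 in PWOFC against CWOFP (SE 0.61, adjusted p = 0.46 by edgeR), with a 95% interval of -0.79 to 2.23, and it was 1.19 without replicate 3, 0.36 without replicate 2 of PWOFC, and 1.11 without replicate 1 of CWOFP.

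Over the 12 libraries of day 14, which had no part in choosing the gene, PH4alphaPV was compared with the summed eggshell transcripts. On a log2 scale Pearson's r was 0.89 (permutation p = 0.00014, adjusted p = 0.000504) and Spearman's rho was 0.87 (permutation p = 0.0006, adjusted p = 0.00216). The value of r was 0.81 without the 2 libraries farthest from the median of the eggshell sum, and 0.90 after the mean of each group was taken away. These permutations exchanged libraries across the 4 groups. An exact permutation test that kept the groups, and the same-numbered CWFP and CWOFP libraries together, gave p = 0.00463 for the r within groups, the smallest that its 216 orders allow (adjusted p = 0.042). This was 1 of 18 relations computed between 6 of the genes and the sums of 3 marker lists, which were picked after the values had been seen. The eggshell sum was 6923 CPM in replicate 3 of PWOFC, against 19290 and 20924 CPM in the other two, and 1902 CPM in replicate 3 of CWFP, against 12357 and 10886 CPM in the other two. In each of the 4 groups of day 14 the library with the least PH4alphaPV was also the one with the lowest eggshell sum. Between groups the direction was not always shared. In CWFP against CWOFP the median log2 fold change of the 20 eggshell genes was 0.85, whereas PH4alphaPV had -0.33. In PWOFC against CWOFP both were above 0, at 1.76 and 0.72. Replicate 1 of CWOFP had 21.6 CPM of PH4alphaPV at an eggshell sum of 6904 CPM. Replicate 1 of CWFP had 16.1 CPM at 12357 CPM.

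**Figure D3:**
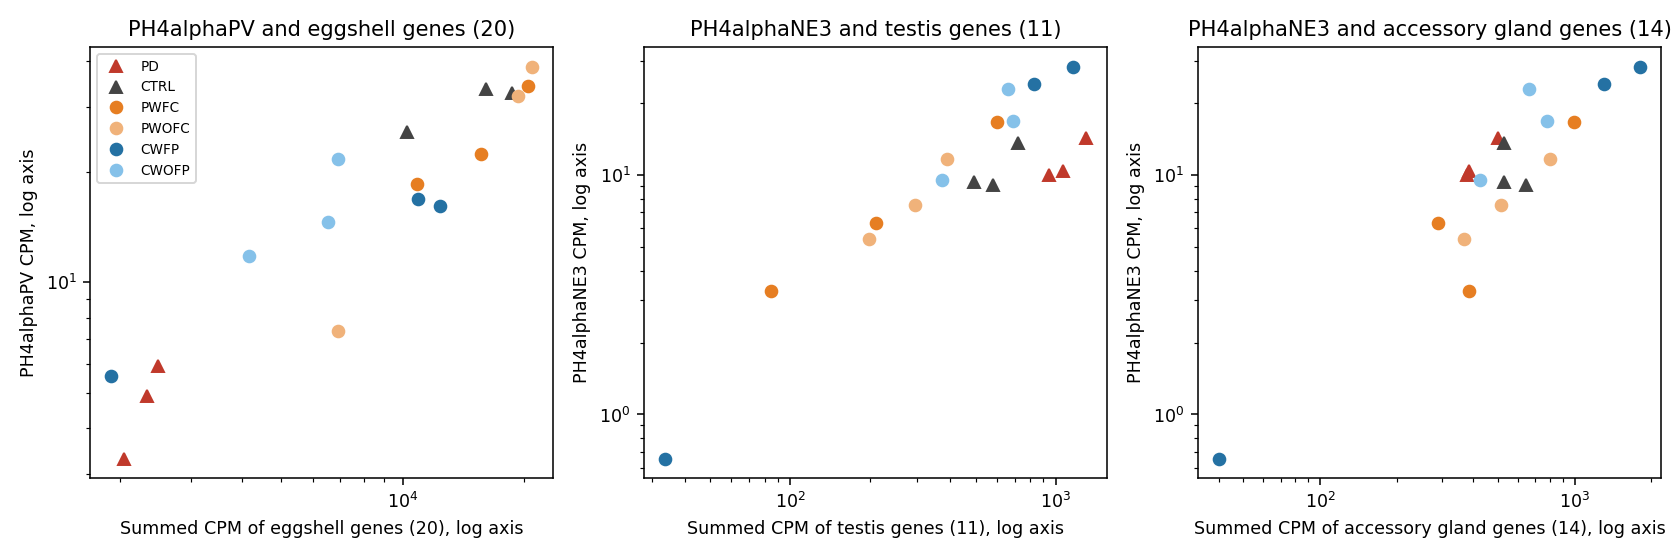
CPM of PH4alphaPV against the summed CPM of 20 eggshell genes (left), and CPM of PH4alphaNE3 against the summed CPM of 11 testis genes (middle) and 14 accessory gland genes (right), all on log axes, with 1 point per library. Over the 12 libraries of day 14 (circles) r was 0.89, 0.99, and 0.95 from left to right, and triangles mark PD and CTRL libraries.

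The genes with the most similar profile to PH4alphaPV over all 18 libraries were CG13113 (r = 0.97), Cad74A (r = 0.95), Cp7Fa (r = 0.93), lncRNA:CR45156 (r = 0.92), and CG15570 (r = 0.92). Cad74A encodes a cadherin and Cp7Fa a chorion protein, which is also 1 of the 20 eggshell genes. These values describe log2 CPM over libraries that include PD and CTRL, so they hold the difference that chose the gene. They are the 5 highest of 12981 genes and carry no test.

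PH4alphaEFB had the highest length-scaled level, and its libraries spanned 47.8 to 86.4 CPM. It had 68.3, 47.8, and 60.5 CPM in PD libraries, against 76.6, 81.3, and 65.5 CPM in CTRL libraries, and these groups overlapped. On day 14 it had 83.0, 86.4, and 84.7 CPM in PWOFC libraries, against 55.8, 67.4, and 56.0 CPM in CWOFP libraries. All 3 PWOFC libraries were above all 3 CWOFP libraries, as for 10.2% of all genes tested, also after TMM scaling and with the mitochondrial genes left out of the totals.

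The log2 fold change of PH4alphaEFB in PWOFC against CWOFP was 0.54 (SE 0.091), with a 95% interval of 0.33 to 0.76. Its adjusted p was 0.11 by edgeR, so it did not pass the threshold, which 0.0407% of all genes tested did. The adjusted p was 0.036 in an edgeR fit of all 18 libraries, with a log2 fold change of 0.67, and 0.000143 by DESeq2, with 0.58. The share of 0.0407% does not hold for these alternatives, which called more genes. DETs were 4 of 12297 genes in the edgeR fit of PWOFC and CWOFP alone, 38 of 12981 in the fit of all 18 libraries, and 501 of 15894 by DESeq2. The adjusted p was between 0.000143 and 0.38 over all the alternatives. In none of these fits was the change above 1, and PH4alphaEFB was a DET in none of them. The flies of the 2 groups also differed in other transcripts. The 8 midgut genes summed to 8091 to 10177 CPM in PWOFC and to 3577 to 5119 CPM in CWOFP, and the eggshell genes to 6923 to 20924 CPM in PWOFC and to 4166 to 6904 CPM in CWOFP. The 3 yolk protein genes summed to 22303 to 27142 CPM in PWOFC and to 5657 to 12125 CPM in CWOFP. The 3 fat body genes summed to 2199 to 2501 CPM in PWOFC and to 1046 to 1862 CPM in CWOFP. Of the fat body genes, apolpp had a log2 fold change of 0.92 and Apoltp of 0.052, while Lsp2 did not pass the filter on low counts. All 4 sums were higher in PWOFC without overlap. So was the sum of 6 ovary germline genes, at 1217.3 to 1536.5 CPM against 947 to 1192 CPM. The sum of 4 hemocyte genes was higher as well, at 45.8 to 65.7 CPM against 32.3 to 37.6 CPM. Of these 4 genes, however, 2 had fitted values above 0 and 2 had fitted values below 0. The testis, accessory gland, and spermatheca sums overlapped. Of all single genes tested, 27.6% did not overlap between these groups in either direction. Over the 12 libraries of day 14 PH4alphaEFB and the eggshell sum had an r of 0.52 (permutation p = 0.085, adjusted p = 0.15) and a rho of 0.62 (permutation p = 0.037, adjusted p = 0.074), with an r of 0.52 without the 2 farthest libraries and -0.15 within groups. The part of midgut, ovary, yolk, fat body, and hemocyte transcripts in the level of PH4alphaEFB was not tested.

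With FMT, PH4alphaEFB had 81.5, 79.7, and 77.1 CPM in PWFC libraries, all below the 3 PWOFC libraries in CPM, as for 6.39% of all genes tested, but the groups overlapped after TMM scaling. Its log2 fold change was -0.069 (SE 0.096, adjusted p = 0.99 by edgeR), with a 95% interval of -0.30 to 0.16. It had 61.0, 72.2, and 69.9 CPM in CWFP libraries, which overlapped with the CWOFP libraries in CPM but lay above them after TMM scaling, and the log2 fold change was 0.17 (SE 0.15, adjusted p = 1.00 by edgeR), with a 95% interval of -0.19 to 0.53. A change of PH4alphaEFB above 1 on the log2 scale lay outside both intervals.

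The 5 genes most similar to PH4alphaEFB over the 18 libraries were Stt3B (r = 0.93), Vml (r = 0.89), Pdi (r = 0.89), betaCOP (r = 0.89), and Spp (r = 0.89). Stt3B encodes a catalytic subunit of the oligosaccharyltransferase, betaCOP a subunit of the COPI vesicle coat, Spp a signal peptide peptidase, and Vml a protein of the vitelline membrane. Pdi encodes protein disulfide isomerase, the beta subunit with which the alpha subunits assemble. Of these 5 genes, 4 were also among the 5 most similar by Spearman's rho. For the other 6 genes ranked in this way, 1 to 3 of 5 were.

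PH4alphaNE2 and PH4alphaNE3 had no gap between PD and CTRL flies. PH4alphaNE3 had 14.3, 10.4, and 10.04 CPM in PD libraries, against 9.38, 13.6, and 9.10 CPM in CTRL libraries. PH4alphaNE2 had 7.62, 6.19, and 8.09 CPM in PD libraries, against 7.09, 8.30, and 7.42 CPM in CTRL libraries. Both pairs of groups overlapped.

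On day 14 the same 2 genes spread widely. PH4alphaNE3 had 16.7, 3.29, and 6.35 CPM in PWFC libraries, against 5.40, 11.7, and 7.51 CPM in PWOFC libraries. It had 0.653, 24.2, and 28.4 CPM in CWFP libraries, against 9.57, 22.9, and 16.9 CPM in CWOFP libraries. The first CWFP library was the lowest of all 18 and the other two were the highest. PH4alphaNE2 showed the same order within CWFP, with 0.871, 17.3, and 18.4 CPM, against 7.20, 16.7, and 12.7 CPM in CWOFP. It had 11.6, 4.50, and 4.31 CPM in PWFC libraries, against 3.88, 8.74, and 6.23 CPM in PWOFC libraries. The profiles of the 2 genes over the 18 libraries had an r of 0.97.

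FMT gave no detectable difference in either gene by edgeR. In CWFP against CWOFP the log2 fold change of PH4alphaNE3 was 0.10 (SE 1.07, adjusted p = 1.00), with a 95% interval of -2.49 to 2.69. The value turned to 0.67 without replicate 1 of CWFP and to -0.75 with the replicate number as a block. The log2 fold change of PH4alphaNE2 was -0.0097 (SE 0.95, adjusted p = 1.00), with 0.54 without that library and -0.69 with the block. In PWFC against PWOFC the log2 fold changes were 0.078 for PH4alphaNE3 (SE 0.59) and 0.11 for PH4alphaNE2 (SE 0.48), both with an adjusted p of 1.00. Intervals of this width do not exclude changes above 1.

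Both genes had lower fitted values in PWOFC than in CWOFP. The log2 fold change was -0.95 for PH4alphaNE3 (SE 0.36, adjusted p = 0.17 by edgeR), with a 95% interval of -1.80 to -0.11. It was -0.91 for PH4alphaNE2 (SE 0.37, adjusted p = 0.18 by edgeR), with a 95% interval of -1.77 to -0.054. Neither passed after adjustment, and the PWOFC and CWOFP libraries of both genes overlapped. Together with PH4alphaEFB they made 3 of the 6 tested genes of the family with an unadjusted p under 0.05 in this comparison, where 25.2% of all 12297 genes tested had one. The 11 testis genes summed to 197 to 389 CPM in PWOFC libraries and to 373 to 689 CPM in CWOFP libraries. The 14 accessory gland genes summed to 369 to 796 CPM in PWOFC libraries and to 426 to 780 CPM in CWOFP libraries, with means of 560 and 623 CPM. Of the 10 tested testis genes all had fitted values below 0, with a median of -0.89, against -0.046 over all genes tested. Of the 13 tested accessory gland genes, 11 had fitted values below 0 and 2 above 0, with a median of -0.60.

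Transcripts of male organs followed PH4alphaNE2 and PH4alphaNE3 across the libraries of day 14. The r of PH4alphaNE3 with the sum of the testis genes was 0.99 (permutation p = 1e-05, the smallest that these permutations can give, adjusted p = 0.00018), and rho was 0.99 (permutation p = 1e-05, adjusted p = 0.00018). The r of PH4alphaNE3 with the sum of the accessory gland genes was 0.95 (permutation p = 6e-05, adjusted p = 0.00027), and rho was 0.90 (permutation p = 0.00021, adjusted p = 0.000945). Without the 2 libraries farthest from the median of each sum, r was 0.98 with the testis genes and 0.84 with the accessory gland genes, and within groups it was 0.99 and 0.97. The exact permutation test within groups and pairs gave p = 0.00463 (adjusted p = 0.042) for the testis genes and p = 0.023 (adjusted p = 0.083) for the accessory gland genes. For PH4alphaNE2 the r was 0.96 with both sums, with a permutation p of 2e-05 for the testis genes (adjusted p = 0.00018, rho 0.97, permutation p = 2e-05, adjusted p = 0.00018) and of 4e-05 for the accessory gland genes (adjusted p = 0.00024, rho 0.92, permutation p = 7e-05, adjusted p = 0.00042). Without the 2 farthest libraries these r values were 0.98 and 0.88, and within groups they were 0.96 and 0.99. Within groups and pairs the exact permutation p was 0.0139 for both sums (adjusted p = 0.063), so after adjustment 1 of these 4 relations, that of PH4alphaNE3 with the testis genes, passed this stricter test.

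On day 7 the testis and accessory gland sums parted. The testis genes summed to 944 to 1304 CPM in PD libraries and to 491 to 722 CPM in CTRL libraries, without overlap. The accessory gland genes summed to 377 to 498 CPM in PD libraries and to 525 to 645 CPM in CTRL libraries, again without overlap but in the other direction. Single accessory gland genes were mixed in PD against CTRL. Of the 13 tested, 9 had fitted values below 0 and 4 above 0, with a median of -0.14. All 10 tested testis genes were above 0, with a median of 0.82. PH4alphaNE2 and PH4alphaNE3 overlapped between these groups. What part male transcripts have in the levels of the genes was not tested.

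The genes most similar to PH4alphaNE3 over the 18 libraries were Sfp51E, Sfp78E, CG6168, prd, and CG6149, each with an r of 0.98. Sfp51E and Sfp78E encode seminal fluid proteins, and prd encodes the transcription factor Paired, which is needed in the male accessory gland. For PH4alphaNE2 they were CG32199, CG18233, Qsox3, sphinx2, and CG11037, each with an r of 0.98. Qsox3 encodes a quiescin sulfhydryl oxidase, a kind of enzyme that forms disulfide bonds, and sphinx2 a serine protease homolog. CG32199 and CG18233 were also on the list of further family genes.

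That list held 18 genes known only by CG numbers, written from knowledge of the family, and its membership was not checked in an annotation. CG18749 had 0 counts in every library. Of the 14 genes with a median of 10 or more counts, all 14 were lowest in replicate 1 of CWFP. The 18 genes summed to 9.67, 150, and 182 CPM in CWFP libraries, against 66.5, 147, and 107 CPM in CWOFP libraries. They summed to 95.5, 32.7, and 43.3 CPM in PWFC libraries, against 48.7, 86.4, and 55.3 CPM in PWOFC libraries. In PWOFC against CWOFP all 15 tested genes had fitted values below 0, against 54.5% of all genes tested. Their median was -0.81 on the log2 scale, against -0.046 over all genes. Of the 15 genes, 5 had an unadjusted p under 0.05 by edgeR, against 25.2% of all genes. None was a DET by edgeR, where 0.0325% of all genes were, and 1 was by DESeq2, where 3.15% of all genes were. In PD against CTRL their median was -0.049, with 7 of 15 fitted values above 0.

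**Figure D4:**
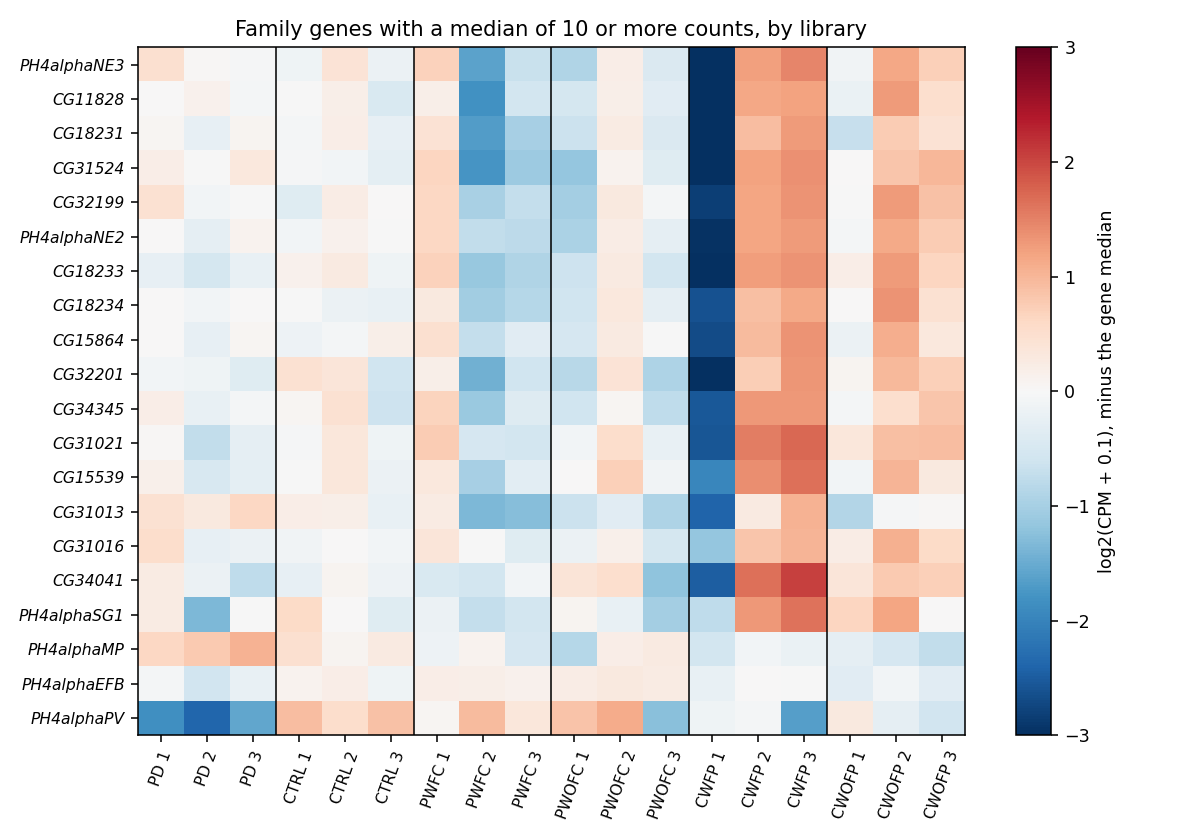
Heat map of 20 genes, 6 prolyl 4-hydroxylase alpha genes and 14 further family genes with a median of 10 or more counts, by library. Color gives log2(CPM + 0.1) minus the median of the gene, and rows are ordered by their correlation with PH4alphaNE3: the 14 further genes, PH4alphaNE2, and PH4alphaNE3 are all lowest in replicate 1 of CWFP, whereas PH4alphaPV at the bottom is low in the 3 PD libraries.

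PH4alphaMP was higher in every PD library than in every CTRL library. It had 2.88, 3.23, and 3.91 CPM in PD libraries, against 2.60, 1.95, and 2.23 CPM in CTRL libraries. The ratio of the means was 1.48, and 23.8% of all genes tested were also higher in PD without overlap. In this comparison the libraries of PD and CTRL did not overlap for 2 of the 6 tested genes, PH4alphaMP and PH4alphaPV, and for 38.0% of all genes tested. As PH4alphaPV was chosen by this difference, its place in that count was set beforehand. The fitted log2 fold change of PH4alphaMP was 0.52 (SE 0.24), which is given as a description.

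On day 14 PH4alphaMP had 1.64, 1.98, and 1.27 CPM in PWFC libraries, against 0.969, 2.12, and 2.24 CPM in PWOFC libraries. It had 1.22, 1.74, and 1.60 CPM in CWFP libraries, against 1.52, 1.28, and 1.07 CPM in CWOFP libraries. All pairs of groups overlapped. The log2 fold changes were -0.099 (SE 0.44) in PWFC against PWOFC and 0.21 (SE 0.43) in CWFP against CWOFP, both with an adjusted p of 1.00 by edgeR, and 0.48 (SE 0.40, adjusted p = 0.44 by edgeR) in PWOFC against CWOFP. Its order by mean was CWOFP, CWFP, PWFC, PWOFC, CTRL, and PD, and of the neighbors in this order only CTRL and PD did not overlap. The genes most similar to it were Ugt37B1 (r = 0.87), CG5973 (r = 0.86), AOX3 (r = 0.85), CG11147 (r = 0.85), and osy (r = 0.84). Ugt37B1 encodes a UDP-glycosyltransferase and AOX3 an aldehyde oxidase.

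PH4alphaSG1, a gene of the salivary gland secretory program in the embryo, had 11 to 84 counts per library. It had 1.50, 0.428, and 1.24 CPM in PD libraries, against 1.90, 1.27, and 0.949 CPM in CTRL libraries. It had 1.09, 0.726, and 0.816 CPM in PWFC libraries, against 1.34, 1.06, and 0.571 CPM in PWOFC libraries. The CWFP libraries had 0.697, 3.24, and 4.07 CPM, against 2.01, 2.99, and 1.26 CPM in CWOFP libraries. All these pairs overlapped, and the low CWFP library was again replicate 1.

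The fitted log2 fold change of PH4alphaSG1 was -0.16 (SE 0.43) in PWFC against PWOFC and 0.33 (SE 0.71) in CWFP against CWOFP, both with an adjusted p of 1.00 by edgeR. In PWOFC against CWOFP it was -1.03 (SE 0.46, adjusted p = 0.21 by edgeR), with a 95% interval of -2.09 to 0.034. Over the 12 libraries of day 14 it had an r of 0.72 with the testis sum (permutation p = 0.00753, adjusted p = 0.0226; rho 0.76, permutation p = 0.00629, adjusted p = 0.0189) and the same r without the 2 farthest libraries, and an r of 0.77 within groups, where the exact permutation p was 0.074 (adjusted p = 0.19). With the accessory gland sum its r was 0.60 (permutation p = 0.028, adjusted p = 0.072; rho 0.60, permutation p = 0.043, adjusted p = 0.078), and 0.48 without the 2 farthest libraries. The genes most similar to it were Gmap (r = 0.77), CG14142 (r = 0.76), CG43056 (r = 0.76), CG31016 (r = 0.75), and CG6763 (r = 0.74). Gmap encodes a Golgi protein that binds microtubules, and CG31016 is on the list of further family genes.

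PH4alphaSG2 and PH4alphaNE1 did not pass the filter on low counts in any comparison of 2 groups. PH4alphaSG2 had 6, 10, and 17 counts in PWFC libraries, against 2, 3, and 3 counts in PWOFC libraries. These groups did not overlap. Of the genes tested by edgeR, which left out PH4alphaSG2, 11.3% did not overlap in either direction. DESeq2, run without the filter, gave PH4alphaSG2 a log2 fold change of 2.13 (SE 0.95, adjusted p = 0.77). It had 26, 3, and 2 counts in CWFP libraries, against 9, 4, and 1 counts in CWOFP libraries, so its highest library was replicate 1 of CWFP, where PH4alphaNE2 and PH4alphaNE3 were lowest. In PD it had 6, 3, and 4 counts, against 2, 11, and 6 counts in CTRL. PH4alphaNE1 had 1 to 7 counts in PD libraries and 2 to 3 counts in CTRL libraries, and 2 to 8 counts in the libraries of day 14. For PH4alphaSG2 the most similar genes were Spn100A (r = 0.80), Zip42C.1 (r = 0.74), CG14110 (r = 0.74), CG14756 (r = 0.73), and mRpS26 (r = 0.73), values that rest on few counts.

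**Figure D5:**
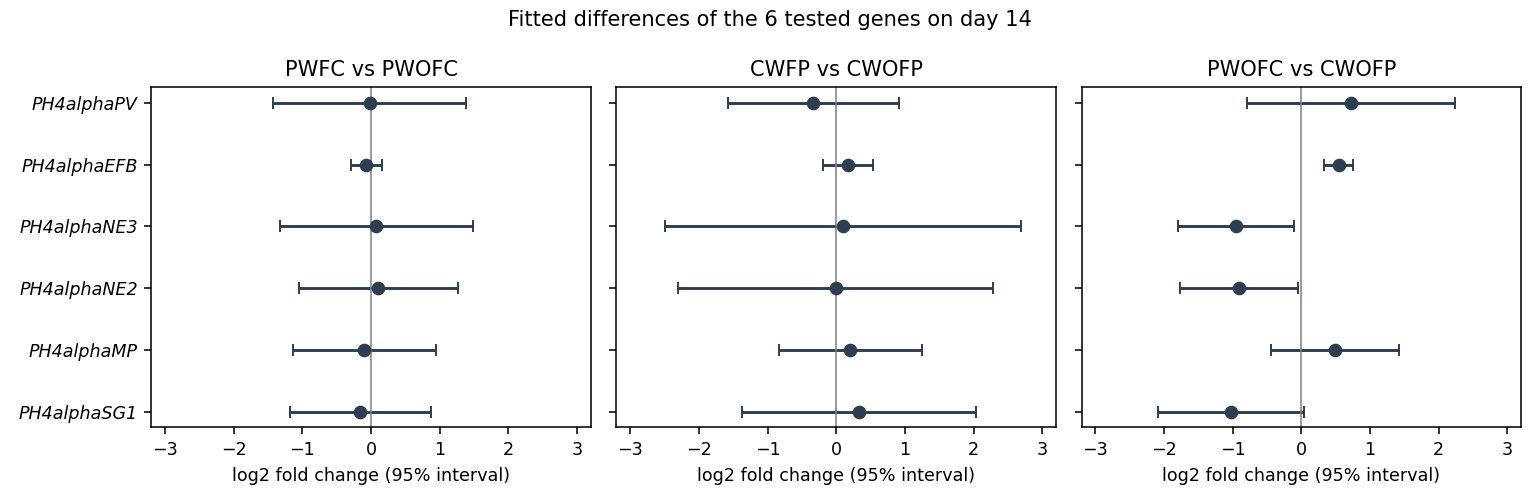
Fitted log2 fold changes (points) with 95% intervals (bars) of the 6 tested prolyl 4-hydroxylase alpha genes in the 3 comparisons of day 14. Only in PWOFC against CWOFP do intervals lie on one side of 0, those of PH4alphaEFB (0.33 to 0.76), PH4alphaNE3 (-1.80 to -0.11), and PH4alphaNE2 (-1.77 to -0.054), before adjustment over all genes.

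Over the family, 0 of 6 tested genes were DETs in PWFC against PWOFC, in CWFP against CWOFP, and in PWOFC against CWOFP by edgeR, and 0 of the 8 genes by DESeq2, which was run without that filter. With an unadjusted p under 0.05 there were 0, 0, and 3 by edgeR and 1, 0, and 3 by DESeq2, where the 1 gene in PWFC against PWOFC was PH4alphaSG2. Of all genes tested by edgeR, 0.0% were DETs in the first 2 comparisons and 0.0325% in the third, and 4.12%, 2.16%, and 25.2% had an unadjusted p under 0.05. By DESeq2 0.521%, 0.314%, and 3.15% of all 15744, 15942, and 15894 genes with counts were DETs (82, 50, and 501), and 3.79%, 2.2%, and 23.0% had an unadjusted p under 0.05. The groups did not overlap in CPM for 1, 0, and 1 of the 6 genes, against 11.3%, 6.73%, and 27.6% of all genes tested. The test of whether the effect of FMT differed between flies with and without rotenone called 0 of 7 tested genes by edgeR and 0 of 8 by DESeq2. By either there were 0 at an unadjusted p under 0.05. By edgeR 0.0% of all genes were DETs and 2.38% had such a p. By DESeq2 0.0062% of all 16127 genes with counts were DETs and 2.47% had such a p.

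Genes of collagen, of the matrix, and of other pathways were read from 6 lists with 27 genes, all tested in every comparison. Not all of them act with the enzyme. The lists were the collagens (Col4a1, vkg, and Mp), genes for the modification and export of collagen, other basement membrane genes, matrix metalloproteinases and their inhibitor, the oxygen-sensing hydroxylase pathway, and the salivary gland transcription factors. None of the 27 genes was a DET in PD against CTRL, PWFC against PWOFC, CWFP against CWOFP, or PWOFC against CWOFP, by edgeR or DESeq2. In the same order, 2.25%, 0.0%, 0.0%, and 0.0325% of all genes tested were DETs by edgeR. By DESeq2 these shares were 4.23%, 0.521%, 0.314%, and 3.15%. At such shares the absence of DETs among 27 genes does not stand out. With an unadjusted p under 0.05 there were 3, 3, 1, and 7 genes by edgeR and 6, 2, 1, and 7 by DESeq2. Of all genes tested, 37.6%, 4.12%, 2.16%, and 25.2% had such a p by edgeR, and 30.8%, 3.79%, 2.2%, and 23.0% by DESeq2.

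The type IV collagen chains Col4a1 and vkg, main substrates of the enzyme in the fly, had log2 fold changes of -0.37 (SE 0.19) and -0.40 (SE 0.19) in PD against CTRL. In PWOFC against CWOFP they had 0.14 (SE 0.17) and 0.13 (SE 0.18). Neither passed the test in any comparison. Pdi, the beta subunit, had -0.41 (SE 0.15, adjusted p = 0.091 by edgeR) in PD against CTRL and 0.57 (SE 0.11, adjusted p = 0.12 by edgeR) in PWOFC against CWOFP. At the ends of the range, PD against CTRL ran between -0.70 for tgo, a partner of the hypoxia factor Sima, and 0.63 for Loxl2, a lysyl oxidase. PWFC against PWOFC ran between -0.42 for Mmp2, a metalloproteinase, and 0.60 for Ndg, which encodes nidogen. CWFP against CWOFP ran between -0.86 for Mp, the collagen Multiplexin, and 0.35 for Loxl1. PWOFC against CWOFP ran between -0.87 for sage, a salivary gland factor, and 0.57 for Pdi.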

How the data were processed

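The authors trimmed reads with cutadapt, mapped them to dm6 with HISAT2, and deposited raw counts per FlyBase gene from featureCounts as whole numbers, with replicates in separate columns. The labels list StringTie 1.3.1 and DESeq2 1.36.0 as well. Of 24 samples, 6 were not analysed here. Gene symbols and coordinates were read in the Ensembl 115 annotation, which lacked 55 of 17611 identifiers.

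Each comparison was fitted on its own libraries with edgeR 4.0.16 (filterByExpr, TMM, glmQLFit and glmQLFTest, robust) in R 4.3.3, with Benjamini-Hochberg adjustment over all genes tested. The thresholds for DETs were 0.05 for the adjusted p and 1 for the log2 fold change in either direction. Intervals used the degrees of freedom of the fit. DESeq2 1.42.0 was an alternative. Similarity used log2 CPM with a prior count of 2 over 18 libraries, and the named genes are the members, list genes at the ends of the range or past the thresholds, and the 5 genes most similar to each member. Relations used 100000 two-sided permutations (SciPy 1.17.1), and a test within groups and pairs, chosen after seeing the data. All 18 replicate pairs differed beyond sampling noise (chi-square per degree of freedom 23.7 or more).

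Same-numbered CWFP and CWOFP libraries deviated together from their group means (r = 0.52, 0.27, and 0.39). Differently numbered ones had r between -0.49 and 0.26, the highest for replicate 2 of CWFP with replicate 3 of CWOFP. The exact permutation test within groups took the numbers to pair these libraries. The edgeR fits were unpaired, apart from the alternative with the replicate number as a block. This pairing comes from the data only. The members and lists were chosen with earlier results of these data known.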

Additional observations from a re-analysis of the deposited data

How the results depend on the processing

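The alternatives were 2 other scalings, 2 other filters, DESeq2, a fit of all 18 libraries, the replicate number as a block, and leaving out each library. The count of family DETs stayed at 0 in the 3 comparisons of day 14 and in the test of the effect of FMT between backgrounds under all of them. DETs over all genes moved more. In PD against CTRL there were 285 (138 higher and 147 lower), against 485 with upper quartile scaling (350 higher and 135 lower), 468 with no filter, 673 by DESeq2 (232 higher and 441 lower), 25 in the fit of all 18 libraries, and 532 with the replicate block. Leaving out 1 library gave 39 to 1648, with the lowest count without PD replicate 2 and the highest without CTRL replicate 2. Upper quartile scaling moved the median of all genes there to 0.23, against 0.046, and PH4alphaNE2 to 0.078, against -0.10, while PH4alphaPV was at -2.55. In CWFP against CWOFP there were 0 DETs, 50 by DESeq2, 25 in the fit of all 18 libraries, and 0 with the replicate block. In PWFC against PWOFC there were 0, 1 with upper quartile scaling, 13 with no filter, 82 by DESeq2, 2 in the fit of all 18 libraries, 0 with the replicate block, and 0 to 33 when 1 library was left out. In PWOFC against CWOFP there were 4, 501 by DESeq2, 38 in the fit of all 18 libraries, 43 with the replicate block, and 2 to 23 when 1 library was left out. The test between backgrounds gave 0, 1 by DESeq2, and 0 to 3 when 1 library was left out. The cause was not tested. The replicate numbers did not pair the libraries of PD and CTRL (same-number r of -0.29, 0.11, and 0.17), PWFC and PWOFC (-0.59, -0.11, and -0.025), or PWOFC and CWOFP (0.34, 0.16, and -0.11).

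Fitted values near 0 changed sign. In CWFP against CWOFP PH4alphaNE2 had -0.0097, against 0.036 with RLE scaling, 0.10 with upper quartile scaling, 0.00110 with the filter of 10 counts in every library of 1 group, 0.032 by DESeq2, and 0.021 in the fit of all 18 libraries, and PH4alphaNE3 had 0.10, against -0.75 with the replicate block. In PWFC against PWOFC PH4alphaPV had -0.022, against 0.016 with upper quartile scaling and 0.20 with the replicate block, and PH4alphaNE3 had 0.078, against -0.12 with the block. When 1 library was left out, the values in CWFP against CWOFP were -0.58 to 0.037 for PH4alphaPV, -0.076 to 0.78 for PH4alphaSG1, -0.40 to 0.54 for PH4alphaNE2, and -0.38 to 0.67 for PH4alphaNE3. In PWFC against PWOFC they were -0.47 to 0.39 for PH4alphaPV, -0.44 to 0.11 for PH4alphaSG1, -0.40 to 0.094 for PH4alphaMP, -0.40 to 0.43 for PH4alphaNE2, and -0.66 to 0.49 for PH4alphaNE3. No value in PWOFC against CWOFP changed sign. Of the 6 relations with marker sums that passed on day 14, 4 did not pass within groups and pairs, an alternative chosen after seeing the data. With 3 libraries per group, intervals of day 14 were wide for all genes but PH4alphaEFB, and the low counts of PH4alphaSG2 and PH4alphaNE1 allow no statement on change.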
